A study of Mus musculus with 26 samples.

Results

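Polycomb repressive complex 1 (PRC1) is the Polycomb group (PcG) complex that places ubiquitin on histone H2A. The 9 genes described here encode its E3 ligases *Ring1* and *Rnf2* (RING1B), the PCGF subunits *Bmi1* (PCGF4) and *Pcgf2* (MEL18), the chromodomain readers *Cbx2*, *Cbx6*, *Cbx7* and *Cbx8*, and the polyhomeotic subunit *Phc1*. They were chosen by symbol from a deposited table of expression values, in which each of the 9 was found as 1 row among 52454 gene symbols.

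RNA-seq was analysed in 10 libraries from E14.5 mouse embryos, 1 library per condition. 2i-MEFs are fibroblasts grown from chimeric embryos made with female F1 (129X1/SvJ and MSM/Ms) ES cells kept in 2i medium, in which *Dnmt3a* or *Dnmt3b* had been disrupted by CRISPR/Cas9, and they had been selected against host cells. MEFs, labelled as male C57BL6 at passage 1, were *Dnmt3a* WT or *Dnmt3a* KO and had received DMSO or GSK126, an inhibitor of the PRC2 methyltransferase EZH2. Heart and liver, also labelled male C57BL6, came from *Dnmt3a* WT and *Dnmt3a* KO embryos of heterozygous crosses, in which the null allele is germline and not limited to a cell type. The heart and liver of a genotype carry the same number in their titles, but the labels do not say whether they came from 1 embryo. The 2i-MEF libraries compared here both carry a *Dnmt3* deletion. Not analysed here are WT 2i-MEFs and 16 samples of DNA methylation.

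In canonical PRC1, a CBX protein reads the H3K27me3 mark laid down by PRC2, *Bmi1* or *Pcgf2* pairs with a RING ligase that ubiquitinates H2A, and PHC proteins link complexes to each other through their SAM domains. Variant PRC1 complexes carry RYBP or YAF2 in place of a CBX protein and contain any of the PCGF subunits. PRC1 is known for silencing developmental genes and, in fibroblasts, the senescence locus *Cdkn2a*.

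The genes lie at 7 positions in the mouse genome (mm10). *Ring1* is on chromosome 17 (34020792 to 34024680, minus strand), *Rnf2* on chromosome 1 (151458004 to 151500955, minus strand), *Bmi1* on chromosome 2 (18677018 to 18686629, plus strand) and *Phc1* on chromosome 6 (122317731 to 122340561, minus strand). *Pcgf2* is on chromosome 11 (97688823 to 97700497, minus strand). Further along that chromosome, *Cbx2* (119022962 to 119031270, plus strand) is followed by *Cbx8* (119036305 to 119040969, minus strand) after 5034 bases. *Cbx6* (79823896 to 79834688, minus strand) and *Cbx7* (79915807 to 79971119, minus strand) are 81118 bases apart on chromosome 15. *Cbx6* overlaps *Npcd* on the same strand over 10342 bases, so reads there could be assigned to either, and *Npcd* reached at most 3.48 FPKM. *Rnf2* overlaps the opposite-strand gene *Trmt1l* over 158 bases and *Cbx7* overlaps *Apobec3* over 100 bases, and whether strand was used in counting is not stated in the sources used here.

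RefSeq starts (GRCm38.p6) were found for 8 of the 9 genes. The 250 bases before the start held 30 CpG dinucleotides in *Ring1*, 23 in *Cbx7*, 22 in *Cbx8*, 21 in *Bmi1*, 20 in *Rnf2* and 20 in *Cbx6*, against a median of 6 over 32851 promoters of the same length. They held 8 in *Phc1* and 5 in *Pcgf2*. The windows of *Phc1*, *Pcgf2* and *Cbx6* lie inside longer annotated transcripts of these genes, and those of *Cbx7* and *Cbx8* overlap annotated exons. The letters GGGCGG, searched on both strands, were found in 7 of the 8 windows and in 32.7% of all 32851. The palindrome CACGTG was found in *Bmi1*, *Pcgf2*, *Cbx6* and *Cbx8* and in 6.02% of all, and CCAAT, on either strand, was found in *Cbx7* and *Cbx8* and in 33.8% of all. A match is a description of letters only. The windows of *Ring1*, *Rnf2* and *Bmi1* are printed below because they lie outside every annotated gene and because these are the E3 ligase pair whose ratio varies among the libraries and the PCGF gene that was higher with GSK126. Capitals mark CpG dinucleotides, and each runs 5′ to 3′ on the strand of its gene. They cover chr17:34024681-34024930 (minus strand), chr1:151500992-151501241 (minus strand) and chr2:18676768-18677017 (plus strand).
Ring1: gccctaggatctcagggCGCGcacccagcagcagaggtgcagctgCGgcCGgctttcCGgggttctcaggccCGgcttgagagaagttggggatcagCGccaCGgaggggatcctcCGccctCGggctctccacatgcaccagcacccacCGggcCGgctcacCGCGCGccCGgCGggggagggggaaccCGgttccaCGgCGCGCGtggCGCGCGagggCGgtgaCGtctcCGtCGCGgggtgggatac
Rnf2: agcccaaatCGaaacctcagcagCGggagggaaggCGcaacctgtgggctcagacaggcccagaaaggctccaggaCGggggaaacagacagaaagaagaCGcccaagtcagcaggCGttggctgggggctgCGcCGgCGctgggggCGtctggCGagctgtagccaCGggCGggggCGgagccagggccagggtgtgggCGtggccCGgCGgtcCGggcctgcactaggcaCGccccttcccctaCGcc
Bmi1: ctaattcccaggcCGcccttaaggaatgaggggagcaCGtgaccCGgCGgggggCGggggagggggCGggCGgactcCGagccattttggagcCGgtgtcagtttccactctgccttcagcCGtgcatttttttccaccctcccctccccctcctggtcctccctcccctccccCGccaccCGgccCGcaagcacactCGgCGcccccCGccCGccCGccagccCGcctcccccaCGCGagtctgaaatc
The *Ring1* window is the most CpG-rich of the 3, and 94.1% of all promoters hold fewer CpG than it does.

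Levels are given as FPKM, fragments scaled to transcript length and to the mapped fragments of the library, which allows genes of different length to be compared. By the depth estimated here, the shallowest library was *Dnmt3b* KO 2i-MEFs with 9180617 mapped reads and the deepest WT liver with 26239722. For a 2000-base transcript 1 FPKM was worth 16.5 reads in the former and 47.2 in the latter. All 10 libraries carried the markers of their labelled tissue, and the 10 cardiomyocyte markers summed to at least 52299 FPKM in heart, the 10 hepatocyte markers to at least 18231 in liver. Erythroid markers summed to between 119851 and 161727 FPKM in liver and between 24296 and 35236 in heart, and to at most 4.69 in fibroblasts. The 6 macrophage markers summed to between 1161 and 1659 FPKM in the 4 MEF libraries and to 25.3 and 15.6 in 2i-MEFs. *Dnmt3a* itself followed the labels in 2i-MEFs (4.21 FPKM in *Dnmt3a* KO, 23.9 in *Dnmt3b* KO) and in liver (53.5 in WT, 12.7 in KO). It went against them in MEFs, with 26.1 and 19.3 FPKM in WT against 85.7 and 84.5 in KO, and in heart, with 55.0 in WT against 125 in KO. *Pax8*, a readout of *Dnmt3a* deletion in the study and so no independent check, was 4.24 and 6.92 FPKM in KO MEFs with DMSO and GSK126, 0.236 and 0.101 in WT MEFs, and at most 0.0491 in heart and liver. Why the *Dnmt3a* level was higher in the KO libraries of MEFs and heart was not tested, and these libraries are called by their labels.

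Each ratio compares 1 library with another, with no replicate check and no p-value. A gene counts as 2-fold apart where the log2 ratio of FPKM + 1 is at least 1 in size. The 95% intervals given with fold changes of FPKM are exact intervals of the estimated read numbers on the shortest annotated transcript. They cover counting error only, not the variation between embryos or cultures.

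All 9 genes were detected in every library, and the highest level exceeded the lowest by 189-fold. *Cbx6* and *Rnf2* held the first or second rank among the 9 in every fibroblast and heart library, and *Cbx7* was the lowest of the 9 in all 10. In liver *Rnf2* was first and *Ring1* second. The summed level of the 9 genes was between 193 and 237 FPKM in the 6 fibroblast libraries, 194 and 184 FPKM in WT and KO heart, and 104 and 82.0 FPKM in WT and KO liver. Since heart, liver and MEF libraries are mixtures, fewer cells of a type and less RNA per cell cannot be told apart in any of these values.

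**Figure D1:**
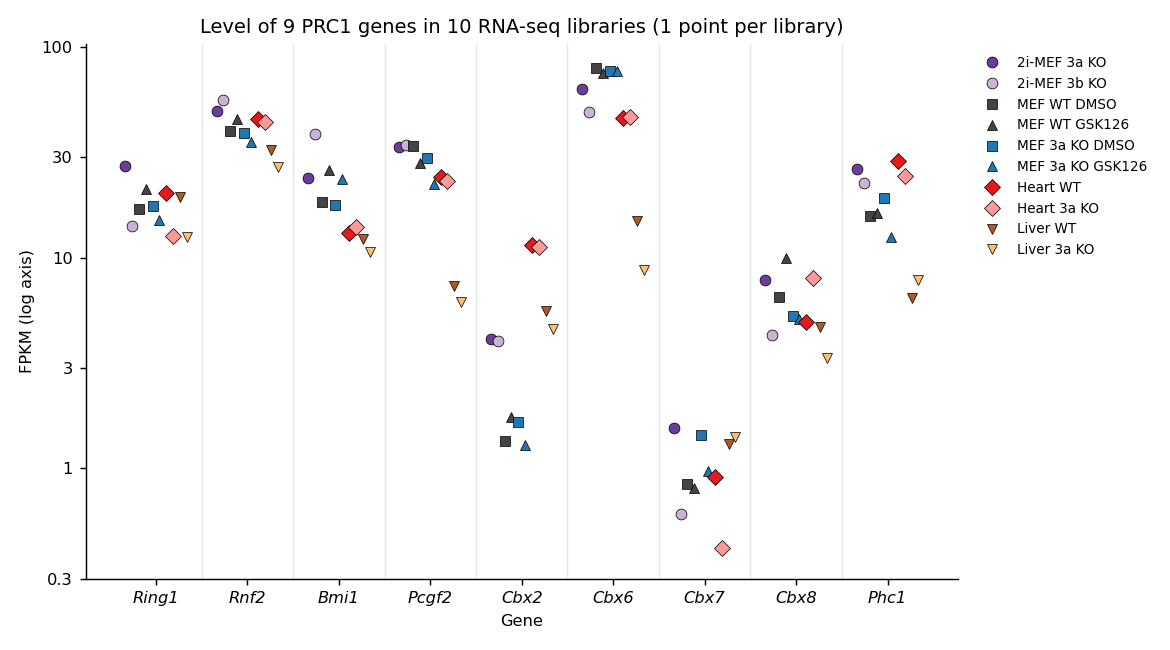
FPKM (log axis) of the 9 genes, 1 point per library, with 2i-MEFs as circles, MEFs as squares (DMSO) and triangles (GSK126), heart as diamonds and liver as inverted triangles. *Pcgf2*, *Cbx6* and *Phc1* are lowest in the liver libraries, *Cbx2* is lowest in the MEF libraries, and *Cbx7* stays between 0.419 and 1.56 FPKM.

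*Rnf2*, which supplies most of the H2A ligase activity in many cell types, was the higher of the RING genes. *Rnf2* spanned 2.08-fold from its lowest to its highest level (2.16-fold for *Ring1*). Its level was 49.7 and 55.7 FPKM in *Dnmt3a* KO and *Dnmt3b* KO 2i-MEFs, 39.8 and 45.6 in WT MEFs with DMSO and GSK126, and 38.8 and 35.2 in KO MEFs with DMSO and GSK126. It was 45.1 and 44.1 FPKM in WT and KO heart and 32.2 and 26.8 in WT and KO liver. Both liver libraries were below the other 8, which overlapped among tissues and cultures, and 22% of all genes were lower in liver in this way.

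*Ring1*, its paralogue, was 27.2 and 14.1 FPKM in *Dnmt3a* KO and *Dnmt3b* KO 2i-MEFs, 17.0 and 21.1 in WT MEFs with DMSO and GSK126, and 17.5 and 15.03 in KO MEFs with DMSO and GSK126. In tissues it was 20.1 and 12.6 FPKM in WT and KO heart and 19.3 and 12.5 in WT and KO liver. Heart and liver overlapped, and the lower value belonged to the KO library in both organs. *Rnf2* exceeded *Ring1* in all 10 libraries, by 1.67-fold in WT liver up to 3.94-fold in *Dnmt3b* KO 2i-MEFs.

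*Bmi1*, a PCGF subunit known for cooperating with *Myc* in lymphoma and for repressing *Cdkn2a*, was 23.9 and 38.5 FPKM in *Dnmt3a* KO and *Dnmt3b* KO 2i-MEFs. In MEFs it was 18.3 and 25.9 FPKM with DMSO and GSK126 in WT, and 17.7 and 23.6 in KO. It was 13.1 and 13.9 FPKM in WT and KO heart and 12.2 and 10.6 in WT and KO liver. Each of the 6 fibroblast libraries was above each of the 4 tissue libraries, a pattern shared by 17.8% of the 16896 genes that reached 1 FPKM in at least 1 of the 10 libraries.

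*Pcgf2* was 33.5 and 34.1 FPKM in *Dnmt3a* KO and *Dnmt3b* KO 2i-MEFs, 33.6 and 28.1 in WT MEFs with DMSO and GSK126, and 29.7 and 22.4 in KO MEFs with DMSO and GSK126. It was 24.0 and 23.0 FPKM in WT and KO heart, but 7.35 and 6.15 in WT and KO liver. Fibroblast and heart libraries overlapped and both liver libraries lay under them, again as in 22% of genes. *Bmi1* and *Pcgf2* occupy the same place in canonical PRC1, and their ratio crossed 1 among the libraries. *Bmi1* was 0.548 and 0.607 times *Pcgf2* in WT and KO heart, and 1.66 and 1.72 times *Pcgf2* in WT and KO liver. It also exceeded *Pcgf2* in *Dnmt3b* KO 2i-MEFs, at 1.13 times, and in KO MEFs with GSK126, at 1.05 times.

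**Figure D2:**
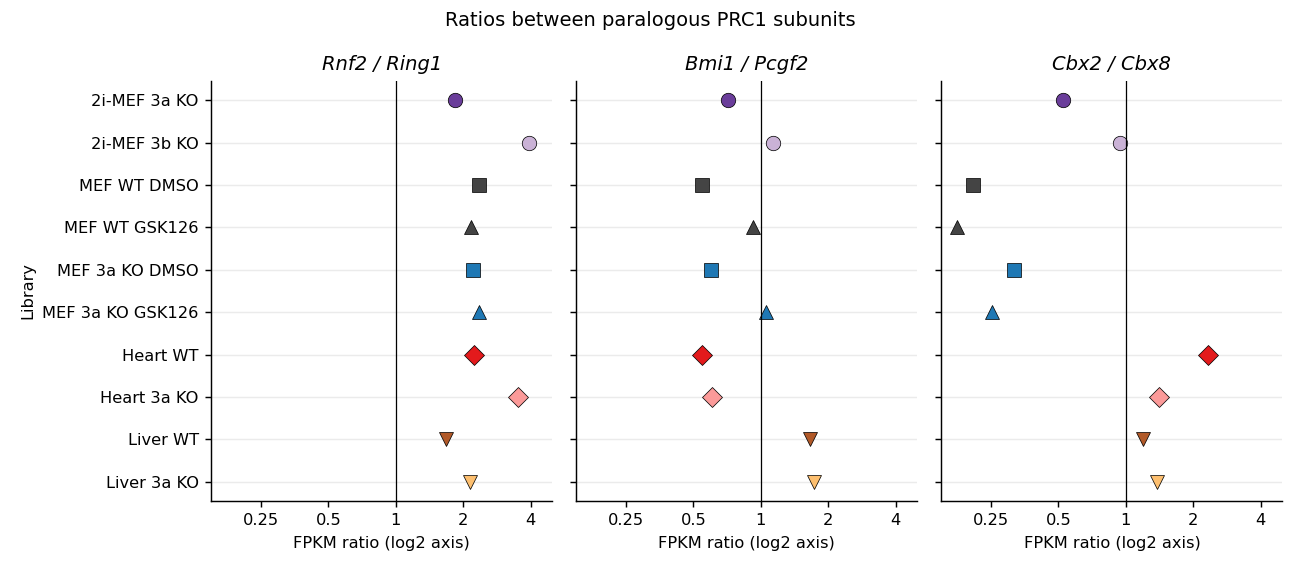
Ratio of FPKM (log2 axis) between 3 pairs of PRC1 paralogues, 1 point per library, with the line at equal levels. *Rnf2* exceeds *Ring1* in every library, *Bmi1* exceeds *Pcgf2* in both liver libraries, in *Dnmt3b* KO 2i-MEFs and in KO MEFs with GSK126, and *Cbx2* exceeds *Cbx8* in the 4 tissue libraries only.

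Among the CBX readers, *Cbx6* and *Cbx2* had the widest spans of the 9 genes over the libraries, with the highest FPKM 9.08-fold and 8.82-fold above the lowest. *Cbx6* was 62.7 and 49.0 FPKM in *Dnmt3a* KO and *Dnmt3b* KO 2i-MEFs, 79.2 and 74.7 in WT MEFs with DMSO and GSK126, and 77.0 and 76.5 in KO MEFs with DMSO and GSK126. It was 46.1 and 46.6 FPKM in WT and KO heart, and 14.8 and 8.72 in WT and KO liver. The order ran from MEFs through 2i-MEFs and heart to liver with no overlap between neighbouring kinds of sample, the closest being 49.0 FPKM in *Dnmt3b* KO 2i-MEFs and 46.6 in KO heart. Each fibroblast library was above each tissue library, as in 17.8% of genes, each MEF above each 2i-MEF library, as in 21%, and each heart above each liver library, as in 40.1%.

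*Cbx2*, a reader whose protein also compacts chromatin, ran differently. It was 4.11 and 4.02 FPKM in *Dnmt3a* KO and *Dnmt3b* KO 2i-MEFs, 1.36 and 1.75 in WT MEFs with DMSO and GSK126, and 1.67 and 1.30 in KO MEFs with DMSO and GSK126. Heart held the highest values, 11.4 FPKM in WT and 11.3 in KO, followed by liver with 5.58 in WT and 4.59 in KO. Every tissue library was above every fibroblast library, which was true of 15.4% of the 16896 genes. The order ran from heart through liver and 2i-MEFs to MEFs with no overlap, the smallest gap being between 4.59 FPKM in KO liver and 4.11 in *Dnmt3a* KO 2i-MEFs.

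*Cbx8*, the neighbour of *Cbx2* on the opposite strand, did not follow it. It was 7.86 and 4.28 FPKM in *Dnmt3a* KO and *Dnmt3b* KO 2i-MEFs, 6.52 and 9.94 in WT MEFs with DMSO and GSK126, and 5.28 and 5.12 in KO MEFs with DMSO and GSK126. It was 4.94 and 7.99 FPKM in WT and KO heart and 4.70 and 3.33 in WT and KO liver. Cultures and heart overlapped throughout. *Cbx2* was 2.32 and 1.41 times *Cbx8* in WT and KO heart, and 0.176 to 0.316 times *Cbx8* in the 4 MEF libraries.

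*Cbx7*, the main CBX reader of PRC1 in ES cells, was 1.56 and 0.606 FPKM in *Dnmt3a* KO and *Dnmt3b* KO 2i-MEFs. It was 0.847 and 0.806 FPKM in WT MEFs with DMSO and GSK126, and 1.43 and 0.970 in KO MEFs with DMSO and GSK126. In tissues it was 0.915 and 0.419 FPKM in WT and KO heart and 1.30 and 1.41 in WT and KO liver. These levels rest on between 3 and 19 reads if the shortest annotated transcript is taken and between 18 and 117 if the longest is, a choice that FPKM does not settle. On the shortest transcript the counting interval of its ratio excluded 1 in 1 of 12 comparisons, that of KO heart with KO liver, and on the longest in 7 of 12, so whether its differences exceed counting error depends on the transcript. Pluripotency markers, 6 in number, summed to at most 5.59 FPKM in any library.

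Of the FPKM summed over *Cbx2*, *Cbx6*, *Cbx7* and *Cbx8*, *Cbx6* made up 82.3% to 91.2% in the 6 fibroblast libraries, 72.7% and 70.3% in WT and KO heart, and 56.1% and 48.3% in WT and KO liver. *Cbx2* made up 1.54% to 6.95% in fibroblasts, 18.1% and 17.0% in WT and KO heart, and 21.1% and 25.4% in WT and KO liver. The sum itself was 63.4 and 66.2 FPKM in heart and 26.4 and 18.1 in liver, so a larger share in liver did not mean a higher level.

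**Figure D3:**
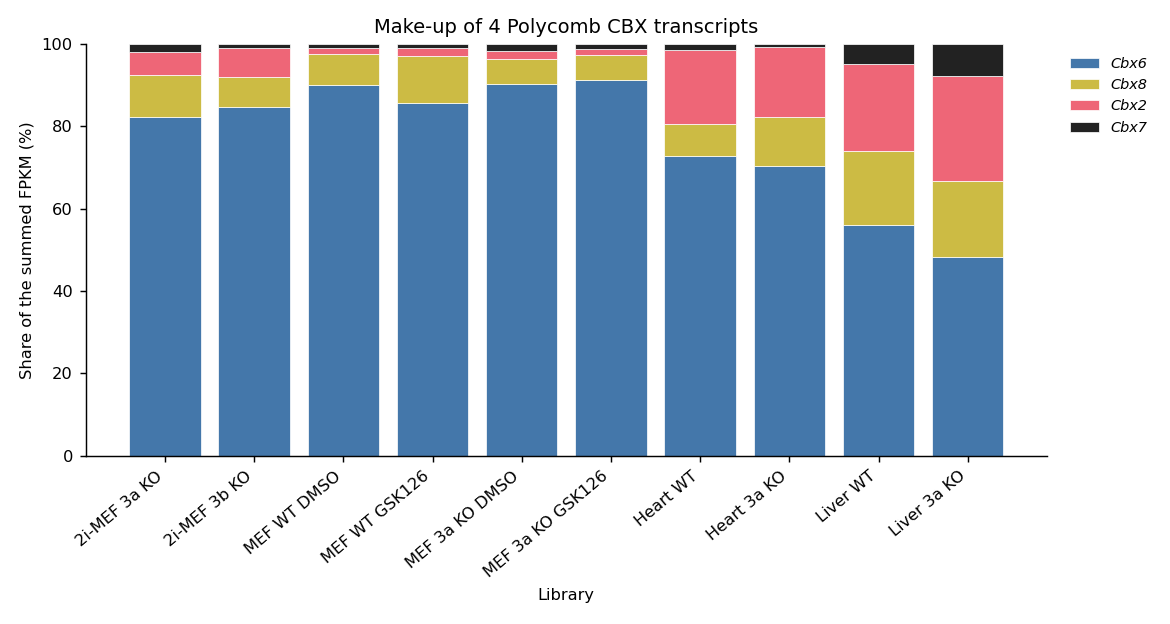
Share (%) of *Cbx2*, *Cbx6*, *Cbx7* and *Cbx8* in their summed FPKM, 1 stacked bar per library. The *Cbx6* share is 82.3% or more in the 6 fibroblast libraries and 72.7% or less in the 4 tissue libraries, where the *Cbx2* share is 17.0% or more.

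*Phc1* was 26.4 and 22.6 FPKM in *Dnmt3a* KO and *Dnmt3b* KO 2i-MEFs, 15.8 and 16.3 in WT MEFs with DMSO and GSK126, and 19.2 and 12.5 in KO MEFs with DMSO and GSK126. It was 28.6 and 24.4 FPKM in WT and KO heart, and 6.41 and 7.84 in WT and KO liver. Both 2i-MEF libraries were above all MEF libraries, as in 24.1% of genes, and both liver libraries were under the other 8, as in 22%. Its paralogue *Phc2* was also lowest in both liver libraries, but by less, at 51.2 and 49.7 FPKM in WT and KO heart and 43.5 and 38.4 in WT and KO liver.

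Heart and liver differed most in *Phc1*, *Pcgf2* and *Cbx6*. In WT, *Phc1* was 4.47-fold higher in heart than in liver (95% counting interval 4.04 to 4.96), *Pcgf2* 3.26-fold (2.62 to 4.07) and *Cbx6* 3.11-fold (2.72 to 3.57). In the KO libraries the same genes were 3.12-fold (2.82 to 3.45), 3.73-fold (2.92 to 4.79) and 5.34-fold (4.50 to 6.35) higher in heart. These 3 of the 9 genes were at least 2-fold higher in heart in both genotypes, against 17% of the 15146 genes tested.

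In WT alone the count was 3 higher and 0 lower in heart, where 41.6% of all genes were 2-fold apart, 20.6% higher and 21.1% lower. In the KO libraries it was 5 higher and 0 lower, where 43.7% of all genes were 2-fold apart, and 23.7% of all genes were higher in heart and 20% lower. *Cbx2* (2.46-fold, 2.17 to 2.79) and *Cbx8* (2.40-fold, 2.06 to 2.79) were added there. Over the 9 genes the log2 ratio had a median of 0.47 in WT and 1.05 in KO, against medians over all genes of -0.09 and 0.00. Genes with at least 1 FPKM in both WT libraries had a median of -0.13, and relative to it *Cbx2* also passed the threshold in WT (log2 ratio 0.92, and 1.05 after centring).

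In 7 of the 9 genes both heart libraries were above both liver libraries, which held for 40.1% of all genes. *Cbx7* ran the other way, as did 42.6%, with 9 and 3 reads in WT and KO heart against 17 and 18 in WT and KO liver on its shortest transcript, and *Ring1* overlapped between the organs. The proliferation markers were higher in liver, where the 12 summed to 2767 and 2671 FPKM in WT and KO, against 909 and 937 in heart. Hepatocyte markers summed to 27815 FPKM in WT and 18231 in KO liver, and all 10 erythroid markers were at least 2-fold lower in heart, with a median log2 ratio of -3.57 in WT and -4.75 in KO. Fibroblast markers were higher in heart, with a median log2 ratio of 1.31 in WT (6 of 10 past 2-fold) and 2.42 in KO (9 of 10), and endothelial markers as well, with 1.71 and 1.88 (5 of 6 in each). The 6 macrophage markers were lower in heart, with medians of -1.75 in WT and -1.26 in KO. The share of these cell types in the levels of the 9 genes was not tested.

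Other PRC1 genes did not share 1 direction between heart and liver. Of 6 polyhomeotic and Scm-like genes, *Phc1* included, 5 were higher in heart in each genotype, with median log2 ratios of 0.37 in WT and 0.44 in KO. Among 32 other genes of PRC1 and its partners, 2 were at least 2-fold higher in WT heart and 6 higher in WT liver. Of all genes 20.6% and 21.1% were, and the 32 had a median log2 ratio of -0.18 in WT. *Auts2*, a partner of PCGF3 and PCGF5 complexes, was 34.0 FPKM in heart and 1.28 in liver. *Usp7*, a deubiquitinase found in the PCGF1 complex, was 22.7 FPKM in heart and 102 in liver, and *Tfdp1*, an E2F partner, was 41.7 against 136. The E-box partner *Max* was 28.4 against 86.7 FPKM. The PCGF family was divided, since *Pcgf5* and *Pcgf2* were at least 2-fold higher in WT heart, while *Pcgf6* (3.25 against 9.53 FPKM) and *Pcgf1* (4.31 against 12.0) were higher in WT liver. In the KO libraries *Pcgf5* was 12.7 FPKM in heart and 15.1 in liver, the reverse order. In KO, 2 of the 32 genes were at least 2-fold higher in heart and 6 in liver, where 23.7% and 20% of all genes were. Of 12 PRC2 genes, 0 were 2-fold higher in WT heart and 3 were higher in WT liver, where 20.6% and 21.1% of all genes were. Those 3 were the core subunits *Suz12* and *Eed* and the accessory gene *Phf19*. In KO the PRC2 counts were 1 and 3, against 23.7% and 20% of all genes.

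**Figure D4:**
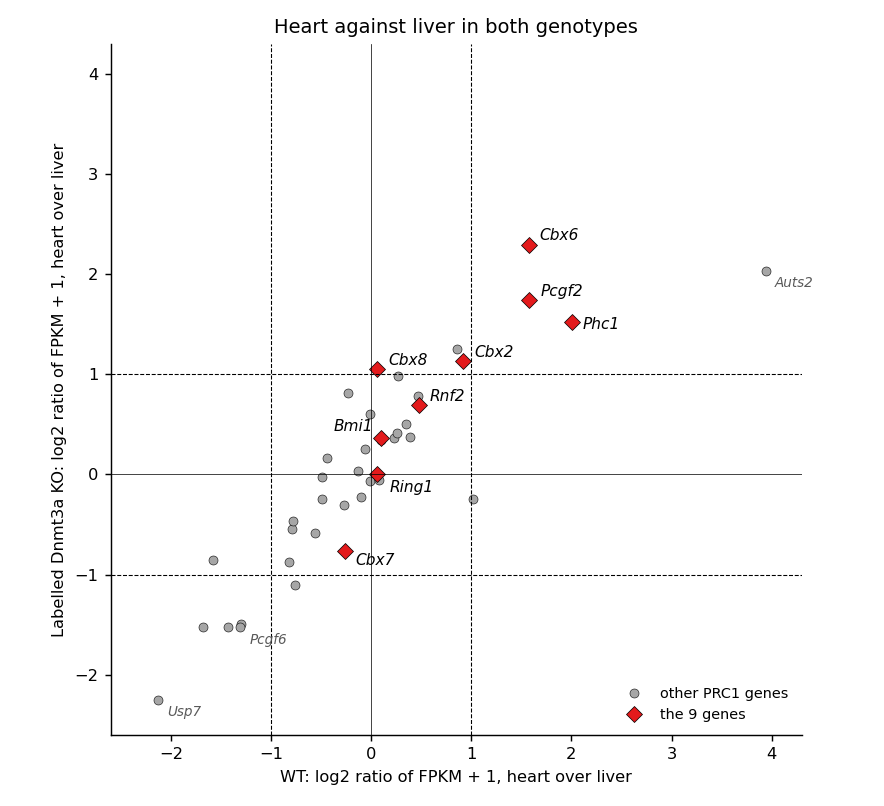
Log2 ratio of FPKM + 1, heart over liver, in WT (x axis) and in the libraries labelled *Dnmt3a* KO (y axis), for the 9 genes (diamonds) and 32 other PRC1 genes (grey circles), with dashed lines at 2-fold. *Phc1*, *Pcgf2* and *Cbx6* lie beyond 2-fold in both genotypes, and *Ring1* lies near 0 in both.

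WT MEFs with DMSO were then set against WT heart and WT liver, 2 comparisons that share the MEF library. Against heart, *Cbx2* was 8.44-fold lower in MEFs (6.76 to 10.6), with 88 reads against 783. It was the only 1 of the 9 genes past 2-fold, where 35.8% of all genes were. *Phc1* was 1.81-fold lower (1.66 to 1.97) and *Cbx6* 1.72-fold higher (1.56 to 1.89) in MEFs. Against liver, *Cbx6* was 5.34-fold higher in MEFs (4.70 to 6.08), *Pcgf2* 4.57-fold (3.71 to 5.67) and *Phc1* 2.47-fold (2.205 to 2.76), and *Cbx2* was 4.12-fold lower (3.28 to 5.22). That made 4 of 9, against 48.3% of all genes. In MEFs all 10 fibroblast markers were at least 2-fold higher than in either organ and all 6 endothelial and all 10 erythroid markers at least 2-fold lower. All 6 macrophage markers were at least 2-fold higher in MEFs than in heart, and 4 of 6 than in liver, with median log2 ratios of 3.37 and 1.62. Of 12 proliferation markers, 11 were 2-fold lower than in heart and 12 than in liver. The part of these cell types in the ratios was not tested.

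GSK126 was given to MEFs to inhibit EZH2, and the question here was whether the PRC1 genes themselves moved. No member reached 2-fold in either genotype, where 3.76% of all genes did in WT and 5.26% in KO. *Bmi1* was higher with GSK126 in both, by 1.41-fold in WT (1.30 to 1.55) and 1.33-fold in KO (1.23 to 1.44). Both GSK126 libraries were above both DMSO libraries for *Bmi1*, which was so for 15.2% of 14223 genes. With a rule of 1.25-fold in both genotypes, chosen after the values were seen, *Bmi1* was among 4.37% of genes.

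*Pcgf2* was lower with GSK126 in both genotypes, at 0.837 times its DMSO level in WT (0.720 to 0.972) and 0.752 times in KO (0.648 to 0.873), and both DMSO libraries were above both GSK126 libraries, as in 17.9% of genes. *Bmi1* was therefore 0.545 times *Pcgf2* with DMSO and 0.922 times with GSK126 in WT, and 0.597 times and 1.05 times in KO. *Cbx6* had a log2 ratio of -0.08 in WT and -0.01 in KO, and the latter became 0.02 after centring on the median of genes that reached 1 FPKM in each.

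*Cbx7* was lower in both, by a log2 ratio of -0.03 in WT and -0.31 in KO, on 8 to 19 reads per library. *Cbx8* was 1.52-fold higher with GSK126 in WT (1.34 to 1.73) and 0.969 times its DMSO level in KO (0.842 to 1.11). *Phc1* was at 1.03 times in WT (0.938 to 1.13) and 0.654 times in KO (0.599 to 0.715). *Ring1* was at 1.24 times in WT (1.11 to 1.39) and 0.859 times in KO (0.771 to 0.957). The ratios of the genotypes were not tested against each other.

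*Cdkn2a*, the classical PRC1 target, was 124 FPKM with DMSO and 174 with GSK126 in WT MEFs, and 99.5 and 192 in KO MEFs. *Cdkn2b*, its neighbour, was 61.2 and 94.5 FPKM in WT and 62.5 and 113 in KO. Neither reached 2-fold in either genotype, where 3.76% of all genes did in WT and 5.26% in KO. Both GSK126 libraries were above both DMSO libraries for each, as in 15.2% of genes. *Cdkn2a* was at most 0.373 FPKM in heart and liver. The 12 proliferation markers summed to 340 FPKM with DMSO and 230 with GSK126 in WT, and to 312 and 201 in KO, so they moved with the treatment. Macrophage markers summed to 1590 and 1659 FPKM in WT, and to 1294 and 1161 in KO, and fibroblast markers to 12249 and 9327 in WT and 9490 and 6471 in KO. Their part in the levels of *Bmi1* and *Pcgf2* was not tested.

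Among 32 other PRC1 genes and 12 PRC2 genes, 0 reached 2-fold with GSK126 in either genotype, against 3.76% of all genes in WT and 5.26% in KO. *Ezh2*, which encodes the target of the drug, was 18.8 FPKM with DMSO and 11.3 with GSK126 in WT, and 17.3 and 18.7 in KO.

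**Figure D5:**
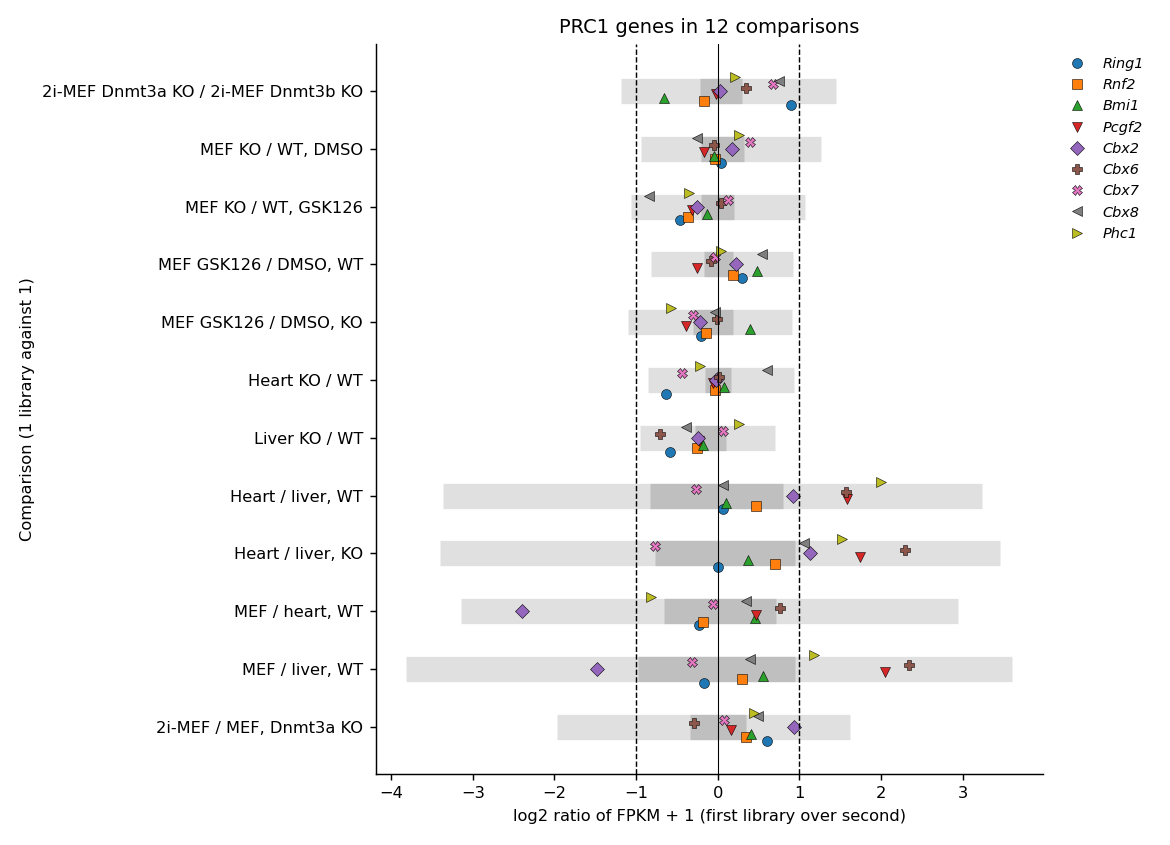
Log2 ratio of FPKM + 1 of the 9 genes in 12 comparisons of 1 library with another, with the middle 50% (dark grey) and 95% (light grey) of all genes tested and dashed lines at 2-fold. Ratios between genotypes and between treatments lie within 2-fold, and those past it are between organs or between MEFs and organs.

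Libraries labelled *Dnmt3a* KO were compared with those labelled WT in MEFs, heart and liver, although the *Dnmt3a* level itself was higher in the KO libraries of MEFs and heart. In MEFs 0 of the 9 genes were 2-fold apart with DMSO and 0 with GSK126, where 6.26% and 5.83% of all genes were. With DMSO the ratios ran from *Cbx8*, at 0.810 times its WT level (0.707 to 0.929), to *Cbx7*, at 1.69 times (0.699 to 4.55) on 19 and 8 reads. *Phc1* was 1.21-fold higher (1.11 to 1.32) and the other 6 were within a log2 ratio of 0.18 of WT. With GSK126, *Cbx8* was at 0.515 times its WT level (0.452 to 0.586), *Ring1* at 0.711 times (0.637 to 0.794), *Cbx2* at 0.743 times (0.564 to 0.976), *Phc1* at 0.770 times (0.699 to 0.848) and *Rnf2* at 0.771 times (0.695 to 0.856). In that comparison 8.42% of all genes had a log2 ratio at least as large in size as that of *Cbx8*. Both WT libraries were above both KO libraries for *Rnf2* and *Cbx8*, as in 18.7% of genes, and both KO libraries were above both WT libraries for *Cbx7*, as in 22.4%. All 6 macrophage markers were lower in the KO MEFs, with a median log2 ratio of -0.63 with DMSO and -0.66 with GSK126. Of 10 fibroblast markers, 7 and 8 were lower, with medians of -0.34 and -0.54. Their part in these ratios was not tested.

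In heart, 0 of 9 were 2-fold apart where 4.04% of all genes were. *Ring1* was at 0.626 times its WT level in the library labelled *Dnmt3a* KO (0.549 to 0.712), and *Cbx8* was 1.62-fold higher (1.39 to 1.88). *Rnf2*, *Bmi1*, *Pcgf2*, *Cbx2* and *Cbx6* were each between 0.958 and 1.06 times WT, with intervals that included 1, and *Phc1* was at 0.854 times (0.790 to 0.922). *Cbx7* was at 0.458 times WT, with an interval of 0.0868 to 1.78 on its shortest transcript and 0.262 to 0.772 on its longest. In liver, 0 of 9 were 2-fold apart where 3.68% of all genes were. *Ring1* was at 0.651 times its WT level (0.586 to 0.723), *Cbx6* at 0.588 times (0.487 to 0.710) and *Cbx8* at 0.710 times (0.609 to 0.827). *Rnf2*, *Cbx2* and *Bmi1* were between 0.821 and 0.869 times WT, with intervals under 1, while *Phc1* was 1.22-fold higher (1.08 to 1.38). Of the 9 genes, 7 were below WT in liver. Relative to a median of -0.08 over genes that reached 1 FPKM in WT and KO liver alike, the log2 ratio of *Ring1* was -0.51 and that of *Cbx6* -0.63. The 10 fibroblast markers summed to 526 FPKM in WT and 281 in KO liver, and the hepatocyte sum was lower in KO liver as given above. All 6 macrophage markers were lower in KO liver, with sums of 300 and 193 FPKM in WT and KO, while 6 of 10 erythroid markers were higher and 4 lower, with a median log2 ratio of 0.24. Their part in the lower *Cbx6* and *Ring1* levels was not tested. In heart the fibroblast markers summed to 1431 FPKM in WT and 1454 in KO. All 10 erythroid markers were lower in KO heart, with sums of 35236 and 24296 FPKM in WT and KO and a median log2 ratio of -0.63. Of 10 hepatocyte markers, 9 were lower in KO heart, 5 of them at least 2-fold, with a median log2 ratio of -0.99. The 1 that was higher, *Trf*, was 30.1 FPKM in WT and 58.5 in KO heart. With it included, the 10 summed to 84.9 and 71.3 FPKM in WT and KO. Their part in the *Ring1* and *Cbx8* ratios of heart was not tested.

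*Ring1*, *Rnf2*, *Pcgf2* and *Cbx2* were lower in KO in both organs, a direction shared by 30.7% of 15146 genes. *Ring1* alone was lower by 1.25-fold in both, as 3.35% of genes were, by the rule chosen after the values were seen. In KO MEFs *Ring1* was at 1.03 times WT with DMSO (0.922 to 1.147) and at 0.711 times with GSK126. Among the 32 other PRC1 genes, *Auts2* was the only 1 past 2-fold between genotypes, with 34.0 FPKM in WT and 12.3 in KO heart. In liver it was 1.28 FPKM in WT and 2.24 in KO.

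*Dnmt3a* KO and *Dnmt3b* KO 2i-MEFs were compared with each other. *Ring1* was 1.92-fold higher in *Dnmt3a* KO (1.65 to 2.25) on 544 and 238 reads, and *Cbx8* was 1.83-fold higher (1.49 to 2.27). *Bmi1* was at 0.622 times its *Dnmt3b* KO level (0.561 to 0.688). None passed 2-fold in FPKM + 1, where 9.01% of all genes did. *Cbx6* was 1.28-fold (1.12 to 1.47) and *Phc1* 1.17-fold (1.05 to 1.30) higher in *Dnmt3a* KO, and *Rnf2*, *Pcgf2*, *Cbx2* and *Cbx7* had intervals that included 1, which those of *Rnf2* and *Cbx7* did not when reads were counted on the longest transcript. All 6 macrophage markers were higher in *Dnmt3a* KO 2i-MEFs, with a median log2 ratio of 0.49, as were 10 of 12 proliferation markers, with 0.30, and their part in these ratios was not tested. *Pcgf5* was the only 1 of the 32 other PRC1 genes past 2-fold, with 4.74 and 12.2 FPKM. *Pcgf2* in *Dnmt3a* KO was at 0.983 times its *Dnmt3b* KO level (0.807 to 1.20).

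*Dnmt3a* KO 2i-MEFs differ from the *Dnmt3a* KO MEFs with DMSO in strain, sex, derivation, macrophage markers and the *Dnmt3a* level (4.21 against 85.7 FPKM), which cannot be told apart. All 10 fibroblast markers were higher in these 2i-MEFs, 4 of them by at least 2-fold. *Cbx2* was 2.46-fold higher in 2i-MEFs (1.96 to 3.09), *Ring1* 1.55-fold (1.39 to 1.73) and *Cbx8* 1.49-fold (1.28 to 1.73), and *Cbx6* was at 0.815 times its MEF level (0.738 to 0.899). With 1 added to FPKM, 0 of 9 were 2-fold apart, against 14.7% of all genes. *Rnf2*, *Cbx2* and *Phc1* were higher in both 2i-MEF libraries than in all 4 MEF libraries, as were 24.1% of genes, and *Cbx6* was lower in both, as were 21%.

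Of the 9 genes, 5 spanned at least 1.5 log2 units over the 10 libraries, and the genes with the most similar profile were looked up among 14150 genes. Likeness was measured as the root mean square (RMS) difference of log2(FPKM + 1) after each gene was centred on its own mean. The closest to *Pcgf2* were *Maged1*, *Yap1* and *Mr1*, with RMS differences of 0.12, 0.12 and 0.13 log2 units against 0.80 for the variation of *Pcgf2* itself. The closest to *Cbx6* were *Marveld1*, *Tmem184b* and *Bcl9l*, each between 0.15 and 0.16 against 0.997. The closest to *Bmi1* were *Rgs19*, *Ttc26* and *Atp6v1g1*, between 0.16 and 0.17 against 0.52. *Cbx2* was closest to *Sirt3*, *Ramp1* and *Ears2*, between 0.22 and 0.26 against 0.87, and *Phc1* to *Sccpdh*, *Phka1* and *Gm10602*. Another member was not among the 3 closest for any of the 5. The nearest member to *Pcgf2* was *Cbx6*, ranked 462, at 0.37. These likenesses are over 10 libraries of 4 kinds of sample and describe these libraries alone.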

How the data were processed

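The authors removed adapters from single-end reads of stranded mRNA libraries with cutadapt, aligned the reads to mm10 and GENCODE M15 by TopHat and Bowtie2, used the uniquely aligned ones and calculated FPKM with Cufflinks. The submitters' processing notes name cutadapt 1.9.1, TopHat2 2.1.0, Bowtie2 2.2.5 and 2.2.8, and Cufflinks 2.2.1, and the study's methods name other versions of cutadapt, TopHat and Bowtie2. The deposited table gives FPKM per gene and library, without read counts. Of its 52609 rows, 155 repeat a symbol and were summed.

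Depth was recovered from genes with 1 annotated transcript, whose low FPKM values are multiples of 1 read. Between 96.5% and 98.0% of values under 10 reads fell within 0.1 of a whole number, against 7.81% to 11.3% at other depths. On simulated data, where the fit was given the true fragment length, the estimate missed the true depth by at most 0.000978%. For the libraries the fragment length was itself chosen by the fit, as 204 bases for all, and the error from that choice was not simulated. Transcript lengths came from GENCODE M21, and RefSeq (GRCm38.p6) gave the promoter windows.

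Samples were grouped by their labels, with 1 library per group, so no p-value was calculated. The 12 comparisons used log2 ratios of FPKM + 1. Genes with at least 1 FPKM in at least 1 of the libraries compared formed the background. Intervals are 95% exact (Clopper-Pearson) intervals of the share of reads in 1 of the 2 libraries, and cover counting error only. Alternatives were a pseudocount of 0.1, a 1.5-fold threshold, ratios centred on the median of genes at 1 FPKM or more in both libraries, a filter on members under 1 FPKM, a background of all genes above 0, and the row with the highest mean for repeated symbols. An alternative planned for the CBX shares is not reported here. The rule of 1.25-fold in both genotypes and intervals from reads on the longest transcript were added after values were seen.

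Named genes are the 9 members, the targeted *Dnmt3* genes, *Cdkn2a*, *Cdkn2b*, at most 4 other PRC1 genes per comparison with the largest ratios past 2-fold, and the 3 genes nearest in profile to each member that spans 1.5 log2 units. Other genes named (*Phc2*, *Ezh2*, *Pax8*, *Trf*, the remaining PCGF genes and the PRC2 genes past 2-fold) were chosen after their values were seen. The members and gene lists were chosen with earlier results of these data known. Calculations were done with numpy 2.4.6, scipy 1.17.1 and pandas 2.3.3 in Python 3.11.15, and figures with matplotlib 3.10.9.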

Additional observations from a re-analysis of the deposited data

Results flagged for a closer look

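Ratios were set beside each other for KO against WT (heart with liver, DMSO with GSK126) and for GSK126 against DMSO (WT with KO). There, in 4 cases a ratio of 1 of the 9 genes had opposite signs, each with counting intervals on opposite sides of 1. Other pairs of settings were not counted, such as *Cbx8* in KO against WT, 1.62-fold in heart and 0.810 times in MEFs with DMSO. With 1 library per condition, none of these differences was tested. The log2 ratio of *Cbx8* between KO and WT was 0.60 in heart and -0.39 in liver, a difference of 0.99. That of *Phc1* between KO and WT was -0.22 in heart and 0.26 in liver, a difference of -0.48. In MEFs, *Phc1* in KO against WT was 0.26 with DMSO and -0.35 with GSK126, a difference of 0.62. The log2 ratio of *Ring1* between GSK126 and DMSO was 0.30 in WT MEFs and -0.21 in KO MEFs, a difference of 0.50.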

How the results depend on the processing

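The number of the 9 genes 2-fold apart stayed within 1.5 times the reported one in all 12 comparisons after centring on the median of genes at 1 FPKM or more in both libraries (4 in place of 3 between WT heart and liver, where *Cbx2* was added), and after leaving out members under 1 FPKM. With a pseudocount of 0.1 it became 1 in place of 0 between *Dnmt3a* KO and *Dnmt3b* KO 2i-MEFs (*Cbx7*) and 1 in place of 0 between 2i-MEFs and MEFs labelled *Dnmt3a* KO (*Cbx2*), 4 in place of 3 between WT heart and liver, and 6 in place of 5 between KO heart and liver, where *Cbx7* was added as lower in heart. With a 1.5-fold threshold it became 4 between the 2i-MEFs, 1 between KO and WT MEFs with GSK126, 2 in heart and 1 in liver between KO and WT, 3 in place of 1 between MEFs and heart, 2 between 2i-MEFs and MEFs, and 4 in WT and 7 in KO between heart and liver. Of 108 log2 ratios, 2 moved by more than the half-width of their counting interval with a pseudocount of 0.1, those of *Cbx2* between MEFs and heart (-2.99 in place of -2.40) and between MEFs and liver (-1.96 in place of -1.48), and none changed sign under centring while 2-fold apart. Ratios of *Cbx7*, whose intervals are wide, moved by less than that half-width but by as much as from -0.76 to -1.54 between KO heart and liver. A background of all genes above 0 lowered the share of genes 2-fold apart by at least 1.5 times in 11 of 12 comparisons, for example to 27.0% from 41.6% between WT heart and liver, because genes near 0 were added. A paired or additive fit over genotype and treatment, or over genotype and organ (where the heart and liver of a genotype share a number in their titles), was not run, and no ratio here comes from a test. With reads counted on the longest transcript, an alternative chosen after the data were seen, the intervals of 81 in place of 69 of the 108 ratios excluded 1, and 7 in place of 1 of the 12 of *Cbx7*. With 1 library per condition, variation between embryos or cultures could not be measured, and *Cbx7* and the *Cbx2* levels of MEFs rest on few reads.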
